A study of Mus musculus with 7 samples.

Results

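The killer cell lectin-like receptor genes, whose symbols start with Klr, were compared between mouse spleens with and without Fpr2, a gene for a formyl peptide receptor of neutrophils and macrophages. All 30 genes with such a symbol in GENCODE M21 were found among the 55414 genes of the count table. Of these, 29 had 10 or more reads in total over the 7 libraries, 27 also passed the filter on low counts, and the pseudogene Klrb1-ps1 had 0 reads in every library. RNA selected for polyadenylation came from 3 spleens labelled WT, with the genotype C57BL/6N, and 4 labelled Fpr2KO, and no treatment was named for either group. For the Fpr2KO mice, the sources used here name neither strain nor design of the allele, and for all the mice neither sex nor age. Replicates carry numbers only, with no word on separate animals, so p-values measure only the spread between these samples.

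Killer cell lectin-like receptors are surface proteins of natural killer (NK) cells and of some T cells. Most are encoded by a gene cluster called the NK gene complex, while Klrg2 lies far from it on chromosome 6. Inhibitory members carry a tyrosine-based motif in the cytoplasmic tail that recruits phosphatases such as Ptpn6 when they bind a ligand, often MHC class I. Activating members lack it and signal through adaptors such as Tyrobp (DAP12) and Hcst (DAP10). In the Klra (Ly49) branch each NK cell switches on only some of the genes, and mouse strains differ in the Klra genes they carry.

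Libraries held 14968605 to 18692809 counts. The Klr genes together took 0.0261% to 0.0370% of them, or 4331 to 6529 reads per library. Reads of Fpr2 numbered 537, 479 and 477 in WT and 0 in every Fpr2KO library, at least 181-fold lower against a floor of 3 counts per library (exact two-sided permutation p = 0.0286, the smallest these 35 splits allow). Over all genes, edgeR's quasi-likelihood test called 6 of 16089. B cell genes, which mark spleen, summed to 3400 to 3474 CPM in WT and 3211 to 3619 CPM in Fpr2KO. Pancreatic acinar genes summed to 907 and 516 CPM in Fpr2KO replicates 1 and 2 and to at most 49.1 CPM elsewhere.

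Family members resemble one another closely, which bears on how reads could be assigned to them. A stretch of 60 coding bases shows this. It was chosen as the stretch of Klra8 with the fewest mismatches summed over the Klra coding genes, and it is printed 5′ to 3′ from the GENCODE M21 transcripts with capitals where a base differs from Klra8.
Klra8: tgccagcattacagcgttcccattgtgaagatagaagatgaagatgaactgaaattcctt
Klra9: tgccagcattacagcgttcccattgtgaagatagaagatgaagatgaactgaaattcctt
Klra10: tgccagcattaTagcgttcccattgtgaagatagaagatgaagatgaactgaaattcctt
Klra14-ps: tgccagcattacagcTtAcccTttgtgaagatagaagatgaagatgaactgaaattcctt
Klra6: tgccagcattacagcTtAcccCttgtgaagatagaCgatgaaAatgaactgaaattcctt
Klra4: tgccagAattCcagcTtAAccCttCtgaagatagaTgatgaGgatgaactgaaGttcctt
Klra2: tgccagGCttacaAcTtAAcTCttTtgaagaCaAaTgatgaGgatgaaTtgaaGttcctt
Klra9 matched Klra8 at every base of this stretch, Klra10 differed at 1 base (C12T, counted from 1 at the left), and the pseudogene Klra14-ps at 3 (G16T, T18A and A22T). Klra6 differed at 5 bases, Klra4 at 10 and Klra2 at 15.

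Over whole transcripts, the share of 50-base words also present in another gene was 39.8% for Klra10, 33.1% for Klra8, 31.5% for Klra9 and 25.6% for Klra14-ps. Klra8 shared most with Klra14-ps (20.4% of its words). In the Klrc branch it was 38.6% for Klrc1, 36.3% for Klrc3 and 16.3% for Klrc2. Klrb1b and Klrb1c, with 27.2% and 17.0%, also overlap exons of the gene model Gm44511 on the same strand, over 599 and 413 bases. By contrast Klrd1, Klrk1, Klrg1, Klrg2, Klra17, Klra2, Klrb1 and Klrb1f shared no 50-base word with any other gene. Klri1 (5.83%), Klri2 (2.77%) and Klre1 (0.308%) shared smaller parts. Reads from shared stretches could have been left uncounted or given to a relative, so levels of all genes with shared words are uncertain. For the 8 unshared genes only exact words in annotated transcripts were searched, and neither near matches nor other word lengths.

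**Figure D1:**
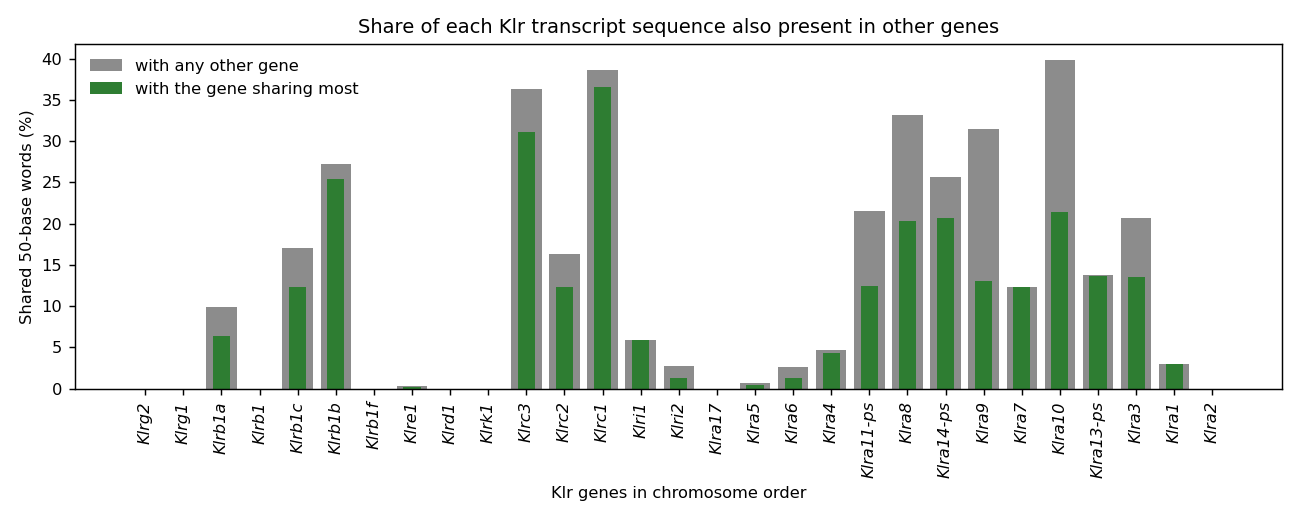
Percent of each gene's distinct 50-base transcript words that also occur in the transcripts of another gene (grey bars, any gene; green bars, the single gene sharing most), for the 29 Klr genes in chromosome order. Klra10, Klrc1 and Klrc3 have the highest shares, and Klrd1 and Klrk1 have none.

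In WT spleens the most abundant Klr transcript per exon length was Klrd1 (CD94), the shared partner chain of the Klrc receptors, at 58.4 ± 3.99 TPM (SD, n = 3). TPM here are counts per kilobase of all annotated exons, scaled to one fixed total per library, and serve only to order genes within a library. Klra13-ps followed at 32.1 ± 7.87 TPM, then Klra2 (Ly49B), known from myeloid cells rather than NK cells, at 30.9 ± 10.4 TPM, and the inhibitory receptor gene Klri1 at 25.1 ± 5.14 TPM. Klrd1 stood above its neighbour by more than their spread, whereas Klra13-ps, Klra2 and Klri1 did not differ beyond theirs. Klra8 (22.5 ± 4.30 TPM), Klra4 (21.4 ± 5.49 TPM), Klrc1 (21.3 ± 1.85 TPM), Klrb1c (19.8 ± 3.36 TPM) and Klra7 (18.4 ± 1.91 TPM) formed the next run, each within the spread of its neighbour in that order. Klrk1 stood at 10.9 ± 0.980 TPM with annotated exons that add up to 7183 bases, against 1281 for Klrd1, although both had about as many reads.

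At the low end, Klra5 was at 1.21 ± 0.230 TPM and Klrb1 at 0.976 ± 0.127 TPM. Klrg2 had 13 reads over all 7 libraries and Klra11-ps 11, with no more than 5 reads in any library, too few to compare. The gene that RefSeq (GRCm38.p6) calls Klrh1 carries the symbol Gm156 in GENCODE M21, and had 1 read in all.

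**Figure D2:**
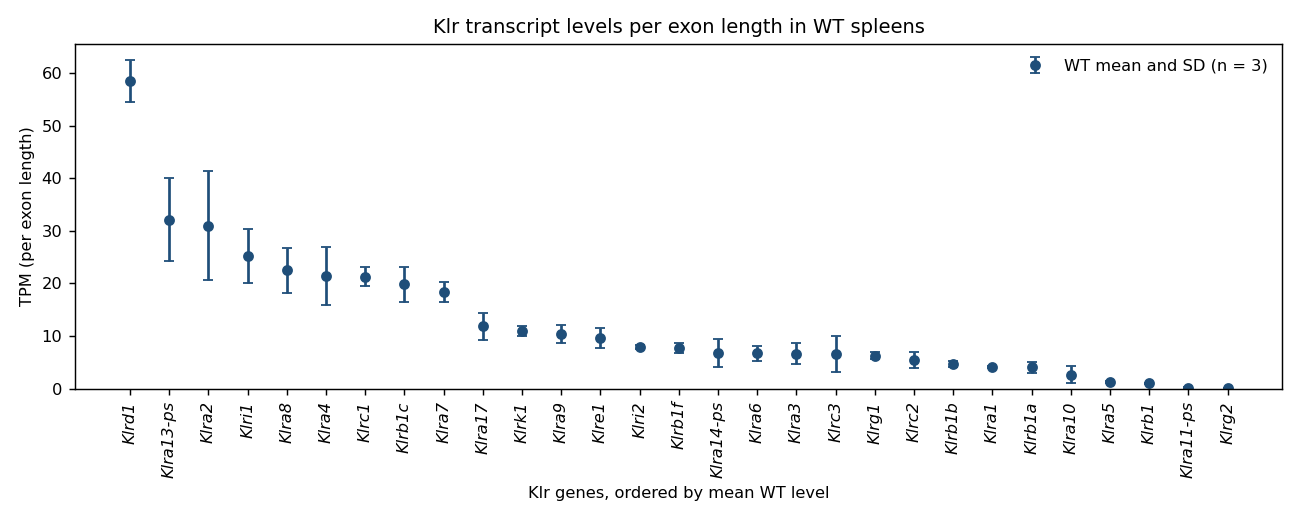
Mean WT level in TPM (vertical axis, bars are SD, n = 3) of the 29 Klr genes, ordered from high to low. Klrd1 is highest at 58.4 TPM, and Klra5, Klrb1, Klra11-ps and Klrg2 are at 1.21 TPM or less.

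Whether loss of Fpr2 goes with a different Klr repertoire was read from the edgeR fit over all genes. No Klr gene passed it: 0 of 27 were called at an adjusted p under 0.05, against 0.0373% of all genes. At an unadjusted p under 0.05 there were 6 Klr genes, against 4.98% of all genes. Klrk1, Klra8, Klrd1, Klra4 and Klra14-ps had higher fitted levels in Fpr2KO, where the background for that direction was 1.91%, and Klra6 had a lower one, where it was 3.07%. DESeq2, on the same libraries, also called 0 Klr genes. At an unadjusted p under 0.05 it had 5 of 29 Klr genes higher and 1 lower. Its backgrounds over 28429 genes were 1.09% for higher and 1.76% for lower. The groups did not overlap in CPM (counts scaled by library size, after TMM) for 6 Klr genes, against 5.91% of all genes. Of these, 5 were higher in Fpr2KO, Klrk1, Klra8, Klrd1, Klra4 and Klra9, and 1 was lower, Klra6, where the background by direction was 2.73% for higher and 3.18% for lower.

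Across the 27 tested Klr genes the median log2 fold change (Fpr2KO minus WT) was 0.11, with 17 above 0 and 10 below, against a median of -0.0049 and 48.6% above 0 for all genes. Leaving out WT replicate 2 moved the Klr median to 0.23, and leaving out WT replicate 3 to 0.02. With either of these libraries left out, the number of Klr genes that were higher at an unadjusted p under 0.05 was 3. Without Fpr2KO replicates 1 and 2, the libraries with the highest acinar sums, it was also 3, and 2 were lower. In that fit the log2 fold change was 0.33 for Klrk1, 0.54 for Klra8, 0.22 for Klrd1, 0.39 for Klra4, 0.57 for Klra14-ps and -0.77 for Klra6, all with the sign they had with all libraries. Other genes moved more, with Klra17 at -0.70, Klra10 at 0.80, Klra13-ps at 0.02, Klrc1 at -0.20, Klrb1b at -0.22, Klrb1f at -0.21, Klra5 at -0.31 and Klrb1 at -0.86. In bulk RNA, more cells of a type and more RNA per cell cannot be told apart.

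**Figure D3:**
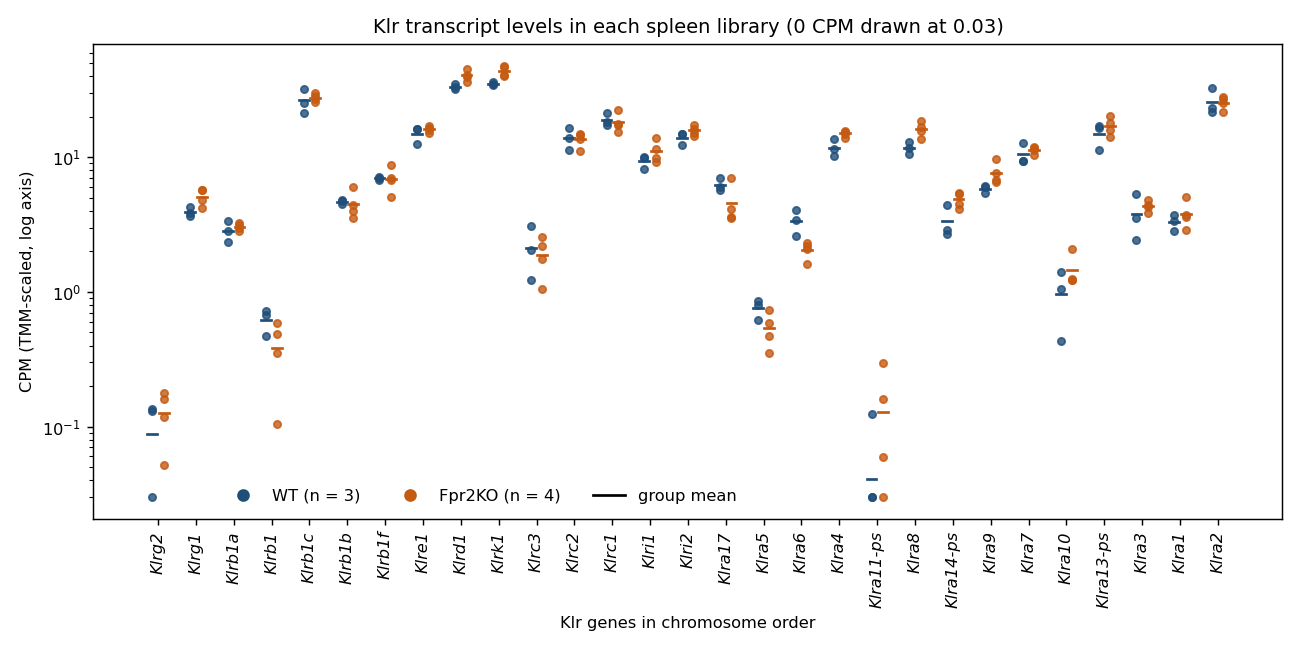
TMM-scaled CPM (log axis) of the 29 Klr genes in each library, in chromosome order, with WT in blue, Fpr2KO in orange and a bar at each group mean. Levels run from 0 CPM (drawn at 0.03) to 48.1 CPM, and in most genes the 2 groups overlap.

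The promoters of Klra8, Klra4, Klra6 and Klra17 are shown because the first pair leaned higher and the other pair lower in Fpr2KO, and that of Klrk1 because it had the smallest p. They are RefSeq windows (GRCm38.p6) from 250 bases before to 50 after the annotated start, printed 5′ to 3′ on the gene's strand. For Klra4, Klra6 and Klra17, capitals mark bases not matched to an identical base of Klra8 in a global alignment. In Klrk1, capitals mark TGTGGT, a RUNX motif, searched on both strands.
Klra8, chr6:130129849-130130148, minus strand: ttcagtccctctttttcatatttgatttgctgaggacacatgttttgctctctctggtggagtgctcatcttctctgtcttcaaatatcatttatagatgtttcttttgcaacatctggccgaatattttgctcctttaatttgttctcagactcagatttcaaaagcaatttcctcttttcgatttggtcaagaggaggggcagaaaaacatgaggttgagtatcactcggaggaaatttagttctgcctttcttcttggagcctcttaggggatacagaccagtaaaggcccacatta
Klra4, chr6:130067222-130067521, minus strand: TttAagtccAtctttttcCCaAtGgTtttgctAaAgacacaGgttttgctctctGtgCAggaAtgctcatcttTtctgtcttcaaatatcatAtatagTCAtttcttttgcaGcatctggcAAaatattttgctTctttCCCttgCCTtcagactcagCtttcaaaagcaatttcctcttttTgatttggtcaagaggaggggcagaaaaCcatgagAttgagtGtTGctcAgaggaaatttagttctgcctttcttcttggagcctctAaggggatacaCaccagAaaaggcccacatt
Klra17, chr6:129876623-129876922, minus strand: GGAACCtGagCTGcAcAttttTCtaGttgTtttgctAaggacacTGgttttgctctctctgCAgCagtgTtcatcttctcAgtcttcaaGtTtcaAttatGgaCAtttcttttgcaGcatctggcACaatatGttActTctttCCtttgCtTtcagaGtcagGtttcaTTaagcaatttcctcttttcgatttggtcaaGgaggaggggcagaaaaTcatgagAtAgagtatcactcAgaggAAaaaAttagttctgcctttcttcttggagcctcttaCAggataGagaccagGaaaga
Klra6, chr6:130026905-130027204, minus strand: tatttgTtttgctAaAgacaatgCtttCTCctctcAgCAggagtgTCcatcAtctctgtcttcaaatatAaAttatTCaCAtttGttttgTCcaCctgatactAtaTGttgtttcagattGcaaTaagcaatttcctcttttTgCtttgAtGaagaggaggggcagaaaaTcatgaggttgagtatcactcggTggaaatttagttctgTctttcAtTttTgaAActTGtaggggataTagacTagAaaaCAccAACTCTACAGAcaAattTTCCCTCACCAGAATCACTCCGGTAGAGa
Klrk1, chr6:129623815-129624114, minus strand: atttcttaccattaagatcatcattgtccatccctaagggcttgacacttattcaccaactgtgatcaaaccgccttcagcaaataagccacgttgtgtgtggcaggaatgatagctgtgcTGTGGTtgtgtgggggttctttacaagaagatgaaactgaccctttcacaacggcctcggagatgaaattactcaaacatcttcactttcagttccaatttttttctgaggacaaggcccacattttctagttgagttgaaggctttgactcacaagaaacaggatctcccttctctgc
Klra4 and Klra8 were 86% identical over the aligned window, Klra17 and Klra8 79%, and Klra6 and Klra8 62.6%. Klra17, with lower values in 3 of 4 Fpr2KO libraries, was closer to Klra8 in this window than Klra6 was. Of the genes not printed, Klra9 (log2 fold change 0.39) was 53% identical to Klra8, Klra5 (-0.48) 70.2% and Klra2 (-0.02) 70.6%. Klra3 (0.20) was 47.8% identical to it, Klra7 (0.11) 46%, Klra10 (0.59) 45.3% and Klra1 (0.20) 42.9%. The groups of Klra17 and Klra5 overlapped in CPM. Whether likeness to Klra8 in this window goes with the direction of the fitted difference was not tested.

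Promoter windows were listed for 23 of the 29 genes, with 28 windows in all. TGTGGT was found in 9 of the 28 windows (32.1%), those of Klra1, Klrb1a, Klrb1c, Klrc1, Klrc2, Klrc3, Klre1 and Klrk1, against 16.8% of all 32851 windows. These windows are not separate units. Klrc2 has 2 overlapping windows with the same matches, Klrc3 carries that stretch as well, and by gene the motif was in 8 of 23. AGGTGTGA, a T-box motif, was found in 0 of the 28 and in 1.28% of all windows. Of the 5 genes printed only Klrk1 holds TGTGGT. A match is a match of letters and was not tested as a binding site.

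Among activating receptors the smallest p was that of Klrk1 (NKG2D), which recognises stress-induced ligands of the Raet1, H60 and Ulbp1 families and lies at chromosome 6, 129610323 to 129623864 (minus strand, GRCm38). Klrk1 had 34.8, 36.3 and 34.5 CPM in the WT libraries and 40.0, 48.1, 40.9 and 47.0 CPM in the Fpr2KO libraries. The lowest Fpr2KO library thus stood above the highest WT library, with WT within 0.983 CPM (SD) and Fpr2KO more spread at 4.13. Its log2 fold change was 0.32 (SE 0.10, 95% interval 0.11 to 0.54), with an unadjusted p of 0.00702 that did not survive adjustment over all genes (edgeR adjusted p = 0.753). In all 18 alternative fits the unadjusted p stayed under 0.05, and the adjusted p ranged from 0.420 to 0.9998.

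Klra8 (Ly49H) and Klra4 (Ly49D) are the activating receptor genes of the Klra branch in C57BL/6 mice, and both proteins pair with Tyrobp. Klra8 is known for binding a cytomegalovirus protein and Klra4 for binding MHC class I. Klra8 (chromosome 6, 130115226 to 130129898, minus strand) had 13.0, 11.8 and 10.6 CPM in the WT libraries and 16.7, 13.7, 18.5 and 15.6 CPM in the Fpr2KO libraries. The groups were apart by a narrow gap between 13.0 CPM in WT replicate 1 and 13.7 in Fpr2KO replicate 2. That gap was below the WT counting error of 0.875 CPM. The fitted difference was the largest among the activating receptors (log2 fold change 0.45, SE 0.14, 95% interval 0.15 to 0.76, edgeR adjusted p = 0.753). Klra4 (chromosome 6, 130043731 to 130067271, minus strand) had 13.7, 10.3 and 11.4 CPM in the WT libraries and 13.9, 15.5, 15.0 and 15.8 CPM in the Fpr2KO libraries. Its lowest Fpr2KO value exceeded the highest WT value by less than the counting error of 0.875 CPM per library, and the fitted difference was not called (log2 fold change 0.35, SE 0.13, edgeR adjusted p = 0.940). The unadjusted p stayed under 0.05 in all 18 alternative fits for Klra8 and in 14 for Klra4.

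Not all activating receptors leaned the same way. Klrb1c encodes the antigen (NKR-P1C) that marks NK cells in C57BL/6 mice, and had 25.5, 32.4 and 21.4 CPM in the WT libraries and 27.1, 25.7, 28.4 and 29.9 CPM in the Fpr2KO libraries. WT replicates 2 and 3 held the highest and the lowest value of all 7, and the log2 fold change was 0.07 (SE 0.14, 95% interval -0.24 to 0.38). Klrc2 (NKG2C), the activating partner of Klrd1 for Qa-1, had 16.6, 13.9 and 11.3 CPM in the WT libraries and 14.9, 14.7, 11.2 and 13.6 CPM in the Fpr2KO libraries, again with overlap and a log2 fold change of -0.03 (95% interval -0.39 to 0.33). Klri2, which pairs with Klre1, had 12.3, 14.8 and 14.8 CPM in the WT libraries and 16.4, 15.2, 14.3 and 17.5 CPM in the Fpr2KO libraries (log2 fold change 0.18, SE 0.13). WT replicate 1 was lowest and Fpr2KO replicate 4 highest in Klri2, with the rest mixed.

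The remaining activating genes were less abundant. Klrb1a ranged from 2.34 to 3.35 CPM in WT and 2.82 to 3.27 CPM in Fpr2KO (log2 fold change 0.10), Klrb1f from 6.82 to 7.14 CPM in WT and 5.04 to 8.80 CPM in Fpr2KO (-0.01) and Klrc3, which has 50-base words in common with Klrc2, from 1.23 to 3.08 CPM in WT and 1.06 to 2.56 CPM in Fpr2KO (-0.15). None of these separated the groups, and the 95% interval of Klrc3, -0.99 to 0.69, covers differences of either sign. Summed over 9 activating genes the level was 129, 131 and 115 CPM in WT and 140.1, 147, 139 and 152 CPM in Fpr2KO, all 4 Fpr2KO sums above all 3 WT sums, and Klrk1, Klra8 and Klra4 made up most of the difference in means. This sum carries no test.

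**Figure D4:**
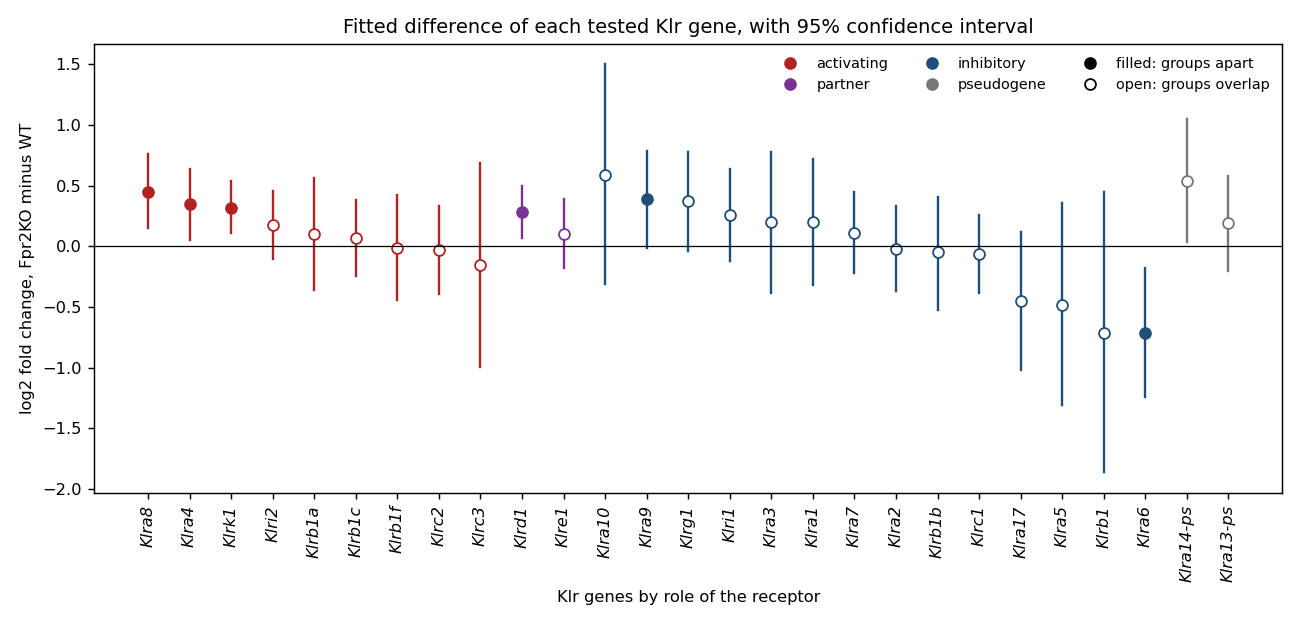
Fitted log2 fold change (Fpr2KO minus WT, vertical axis) with its 95% interval for the 27 tested Klr genes, ordered within activating receptors (red), partner chains (purple), inhibitory receptors (blue) and pseudogenes (grey). Filled points mark the 6 genes whose groups did not overlap: Klra8, Klra4, Klrk1, Klrd1 and Klra9 above 0 and Klra6 at -0.71.

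Of the partner chains, Klrd1 separated the groups and Klre1 did not. Klrd1 (CD94) forms receptors with Klrc1 or Klrc2 that bind Qa-1, and had 32.4, 35.3 and 33.0 CPM in the WT libraries and 39.9, 45.7, 41.2 and 36.5 CPM in the Fpr2KO libraries. Every Fpr2KO library was above every WT library, the closest pair being Fpr2KO replicate 4 and WT replicate 2. The gap of that pair was below the WT counting error of 1.47 CPM. For Klrd1 the log2 fold change was 0.28 (SE 0.10, 95% interval 0.07 to 0.50), with an unadjusted p of 0.0157 and an edgeR adjusted p of 0.873. Klre1, which pairs with Klri1 or Klri2, had 16.4, 16.2 and 12.5 CPM in the WT libraries and 15.8, 16.5, 15.2 and 16.9 CPM in the Fpr2KO libraries, and without WT replicate 3 its log2 fold change of 0.10 became -0.01. The level of Klrd1 relative to the summed Klrc1, Klrc2 and Klrc3 was 0.855, 0.946 and 1.11 in WT and 1.19, 1.17, 1.43 and 1.08 in Fpr2KO, with WT replicate 3 above Fpr2KO replicate 4. Those ratios are of CPM and were not tested.

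Inhibitory receptors pointed in both directions. Klra6 (Ly49F; chromosome 6, 130013033 to 130026954, minus strand) was the only tested Klr gene whose Fpr2KO values all lay below WT. Its reads numbered 51, 62 and 42 in WT and 37, 39, 27 and 44 in Fpr2KO, which is 3.42, 4.06 and 2.58 CPM in the WT libraries and 2.18, 2.09, 1.60 and 2.29 CPM in the Fpr2KO libraries. WT replicate 3 was closest to the Fpr2KO libraries, whose spread of 0.306 CPM (SD) was about their counting error of 0.337. The gap between the groups, from 2.29 to 2.58 CPM, was smaller than that error. The level was 1.64-fold higher in WT (log2 fold change -0.71, SE 0.24, 95% interval -1.24 to -0.18), at an unadjusted p of 0.0137 and an edgeR adjusted p of 0.867. In 17 of 18 alternative fits the unadjusted p was under 0.05, and the log2 fold change ranged from -0.87 to -0.55.

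Set against Klra6, its activating relative Klra8 had a ratio of 3.80, 2.90 and 4.09 in the WT libraries and of 7.68, 6.56, 11.6 and 6.82 in the Fpr2KO libraries. This ratio of CPM within a library does not depend on the scaling between libraries. Its groups could not overlap, because Klra8 was higher and Klra6 lower in every Fpr2KO library, so this adds nothing to the separate values. The ratio pairs the activating Klra gene with the highest fold change and the only Klra gene apart downwards. It was therefore chosen after their values were seen and carries no test. For Klra4 and Klra8 together over the inhibitory genes Klra1, Klra3, Klra5, Klra6, Klra7, Klra9 and Klra10, the ratio was 1.01, 0.665 and 0.848 in WT and 0.919, 0.899, 1.11 and 1.08 in Fpr2KO, with overlap.

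Klra9 (Ly49I), an inhibitory receptor for MHC class I, had 6.17, 5.44 and 5.97 CPM in the WT libraries and 9.71, 7.67, 6.75 and 6.57 CPM in the Fpr2KO libraries. All Fpr2KO values exceeded the WT values, Fpr2KO replicate 1 by the most. The gap between 6.17 CPM in WT replicate 1 and 6.57 CPM in Fpr2KO replicate 4 was below the WT counting error of 0.616 CPM. The difference (log2 fold change 0.39, SE 0.18, edgeR adjusted p = 1.000) was 0.19 without Fpr2KO replicates 1 and 2. Klra9 shares 31.5% of its transcript words with relatives, so part of its reads could belong to genes such as Klra3, Klra10 or Klra8. Klra3 (Ly49C) itself ranged from 2.41 to 5.37 CPM in WT and 3.86 to 4.86 CPM in Fpr2KO and Klra10 (Ly49J) from 0.431 to 1.41 CPM in WT and 1.23 to 2.07 CPM in Fpr2KO, both with overlap. The fitted difference of Klra3, 0.20, became -0.04 without WT replicate 1, and that of Klra10, 0.59, ran from 0.23 to 0.97 with single libraries left out.

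Klra7 (Ly49G), a receptor for MHC class I, ranged from 9.38 to 12.7 CPM in WT and 10.3 to 12.0 CPM in Fpr2KO (log2 fold change 0.11, 95% interval -0.22 to 0.45). Klra1 (Ly49A), the receptor by which inhibition through MHC class I was first described, ranged from 2.81 to 3.73 CPM in WT and 2.90 to 5.04 CPM in Fpr2KO (0.20, 95% interval -0.32 to 0.72). Klra5 (Ly49E), known from fetal NK cells and some T cells, was covered by 12, 13 and 10 reads in WT and 6, 11, 8 and 14 in Fpr2KO. At such depth its log2 fold change of -0.48 has a 95% interval of -1.31 to 0.36, so no difference was detectable.

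Klra17 (Ly49Q) and Klra2 (Ly49B) differ from the rest of the Klra branch in being known from myeloid and plasmacytoid dendritic cells (Klra17) and from myeloid cells (Klra2). Klra17 (chromosome 6, 129831154 to 129876672, minus strand) had 7.04, 5.70 and 6.03 CPM in the WT libraries and 3.59, 7.03, 3.56 and 4.12 CPM in the Fpr2KO libraries. The Fpr2KO libraries other than replicate 2 lay below all WT libraries, while replicate 2 was as high as the highest WT library, and the log2 fold change was -0.45 (SE 0.26, unadjusted p = 0.110, edgeR adjusted p = 1.000). Without Fpr2KO replicate 2 it was -0.73, and the unadjusted p was under 0.05 in 4 of 18 alternative fits. Klra2 had 32.6, 21.6 and 23.4 CPM in the WT libraries and 27.9, 27.3, 21.6 and 25.3 CPM in the Fpr2KO libraries. WT replicate 1 was highest of all 7 in Klra2, and the log2 fold change of -0.02 (95% interval -0.37 to 0.33) became 0.18 without that library. Myeloid cell genes, a list of 9, had 9 of 9 lower fitted levels (median -0.28) and summed to 6445 to 7634 CPM in WT and 4688 to 5543 CPM in Fpr2KO. Of these 9, edgeR called 0, with 4 at an unadjusted p under 0.05, while DESeq2 called 3 and the edgeR fit with the NK covariate called 2. Those 4 were Ly6g (log2 fold change -1.22), S100a9 (-1.06), S100a8 (-1.03) and Itgam (-0.54). The rest differed less, with Lyz2 at -0.28, Cd68 at -0.09, Csf1r and Cd14 at -0.05 and Adgre1 at -0.02, so the list was not lowered evenly. Their part in the Klra17 values was not tested.

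Outside the Klra branch, Klrc1 (NKG2A), the inhibitory partner of Klrd1, had 18.3, 21.4 and 17.4 CPM in the WT libraries and 17.5, 22.4, 15.4 and 17.6 CPM in the Fpr2KO libraries. Its groups overlapped, with a log2 fold change of -0.06 (95% interval -0.38 to 0.26), and the ratio of Klrc1 to Klrc2 ran from 1.10 to 1.54 in WT and from 1.17 to 1.53 in Fpr2KO. Klrg1, an inhibitory receptor for cadherins on mature NK and effector T cells, had 3.69, 3.87 and 4.31 CPM in the WT libraries and 4.83, 5.69, 5.69 and 4.22 CPM in the Fpr2KO libraries. Only Fpr2KO replicate 4 lay within the WT range, and the difference was not called (log2 fold change 0.37, SE 0.18, 95% interval -0.04 to 0.78, edgeR adjusted p = 1.000). Klri1 ranged from 8.13 to 9.99 CPM in WT and 9.30 to 13.8 CPM in Fpr2KO (0.26) and Klrb1b, the inhibitory receptor for Clec2d, from 4.49 to 4.78 CPM in WT and 3.56 to 6.01 CPM in Fpr2KO (-0.05). Klrb1, another inhibitory gene of the Klrb branch, had 7, 11 and 11 reads in WT and 6, 9, 10 and 2 in Fpr2KO, too few to bound its difference closely (95% interval -1.86 to 0.45). Summed over 14 inhibitory genes the level was 103, 99.4 and 92.2 CPM in WT and 101, 115, 90.4 and 96.4 CPM in Fpr2KO, with the WT values inside the Fpr2KO range. That sum includes Klra17 and, as its largest term, Klra2, at a mean of 25.9 CPM in WT and 25.5 CPM in Fpr2KO. Since both are known from cells other than NK cells, the activating and inhibitory sums may reflect different cell mixtures, which was not tested.

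Pseudogenes of the Klra branch were measurable. Klra13-ps (Ly49M) had 16.6, 17.0 and 11.3 CPM in the WT libraries and 17.9, 20.2, 16.0 and 14.2 CPM in the Fpr2KO libraries, with WT replicate 3 lowest and a log2 fold change of 0.19 (95% interval -0.20 to 0.58). Klra14-ps (Ly49N) had 4.42, 2.88 and 2.71 CPM in the WT libraries and 4.12, 5.47, 5.33 and 4.54 CPM in the Fpr2KO libraries. WT replicate 1 lay within the Fpr2KO range, so the groups overlapped, and the log2 fold change was 0.54 (SE 0.23, unadjusted p = 0.0373, edgeR adjusted p = 0.979). Klra14-ps shares 20.7% of its words with Klra8, and whether its reads are partly those of Klra8 was not tested.

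By branch, the summed Klra genes were at 103 ± 11.1 CPM in WT (n = 3) and 115 ± 6.31 CPM in Fpr2KO (n = 4). The Klrb branch stood at 41.6 ± 5.77 and 42.6 ± 1.91 CPM, and the Klrc branch at 35.0 ± 4.49 and 33.7 ± 4.13 CPM. These branch sums overlapped between the groups, whereas the sum over all 29 genes, 302, 302 and 267 CPM in WT and 319, 350.3, 307 and 321 CPM in Fpr2KO, did not. The gap in that total, between 302 and 307 CPM, was smaller than the SD within either group.

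NK cells express many genes outside the Klr family, not all of them confined to NK cells, and these pointed both ways. Of 23 such genes, 12 had higher and 11 lower fitted levels, edgeR and DESeq2 called 0, with 2 at an unadjusted p under 0.05 in edgeR, and the median log2 fold change was 0.02. They summed to 524, 549.9 and 591 CPM in WT and 503, 582, 518 and 592 CPM in Fpr2KO, with overlap. The largest terms of that sum were Il2rb and Ccl5, at means of 135 and 89.8 CPM in WT, with log2 fold changes of -0.11 and -0.19. Neither the sum nor the list is therefore a measure of NK cells alone. The transcription factor genes Eomes and Tbx21 and the perforin gene Prf1 were chosen after their values were seen. Their log2 fold changes were 0.06 (interval -0.28 to 0.40), 0.11 (interval -0.34 to 0.57) and -0.02 (interval -0.26 to 0.22). These intervals cover differences of either sign. Other genes of the list lay further from 0 in both directions, such as Ifng (0.57), S1pr5 (0.50) and Gzmk (-0.52). The smallest p belonged to Ncr1 (NKp46), an activating NK receptor of another family, at 11.9 ± 0.898 CPM in WT and 16.9 ± 1.77 CPM in Fpr2KO (log2 fold change 0.50, SE 0.13, edgeR adjusted p = 0.546), whose groups did not overlap, and to the granzyme gene Gzmm at 4.61 ± 0.911 CPM in WT and 3.17 ± 0.622 CPM in Fpr2KO (log2 fold change -0.54, SE 0.23, edgeR adjusted p = 0.986).

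Members were therefore also set against the NK genes within each library. Per 100 units of the geometric mean CPM of those 23 genes, Klrk1 had 294, 299 and 247 CPM in WT and 342, 337, 342 and 339 CPM in Fpr2KO. Klrk1 was the only one of the 29 genes whose groups stayed apart on this scale. Its SD was 28.4 in WT and 2.54 in Fpr2KO. The share of all genes apart on this scale was not computed, so this count has no background and was not tested. Klra8 ranged over 75.9 to 109.9 in WT and 96.4 to 155 in Fpr2KO, Klrd1 over 237 to 290.1 and 263 to 346, and Klra6 over 18.5 to 33.4 and 13.4 to 18.6. With the mean centred log2 CPM of the NK genes as a covariate in the fit, the log2 fold change was 0.49 (SE 0.12) for Klra8, 0.30 (SE 0.09) for Klrk1, 0.28 for Klrd1, 0.34 for Klra4 and -0.70 for Klra6, and 0 Klr genes were called.

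**Figure D5:**
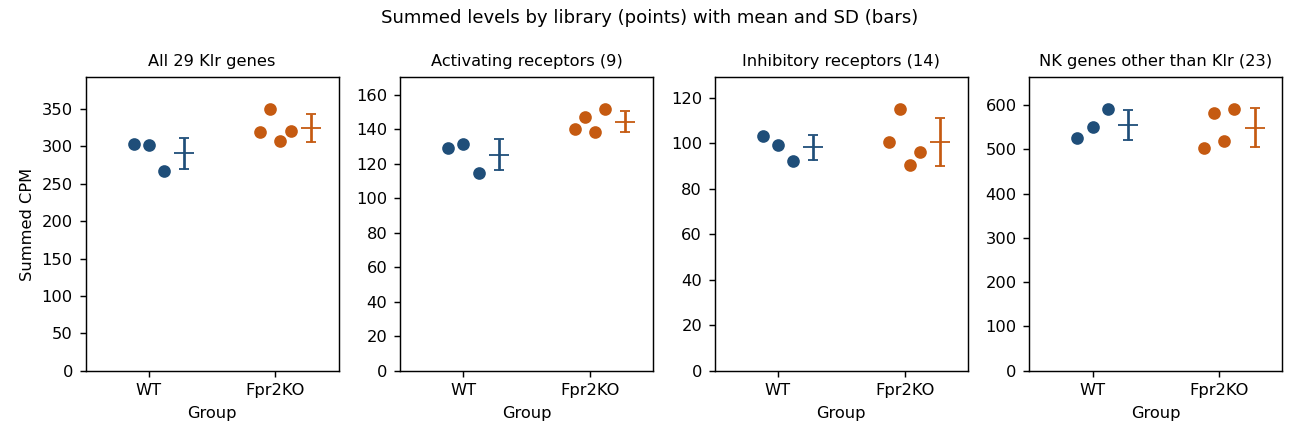
Summed CPM (vertical axes from 0) in each library for all 29 Klr genes, 9 activating receptor genes, 14 inhibitory receptor genes and 23 NK cell genes outside the family, with WT in blue, Fpr2KO in orange, and bars for mean and SD. The activating sums of Fpr2KO lie above those of WT, and the sums of the inhibitory and of the other NK genes overlap. The inhibitory sum includes Klra2 and Klra17, known from cells other than NK cells.

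The adaptors and signalling proteins that these receptors use were read from a list of 22 genes. Of 21 tested, 4 were fitted higher and 17 lower (median -0.06), edgeR and DESeq2 called 0, and 1 had an unadjusted p under 0.05 in edgeR. Tyrobp stood at 244 ± 11.2 CPM in WT and 234 ± 18.9 CPM in Fpr2KO (log2 fold change -0.06, SE 0.09) and Hcst at 27.5 ± 3.37 CPM in WT and 27.6 ± 2.23 CPM in Fpr2KO (log2 fold change 0.00, SE 0.11), both chosen after their values were seen. The smallest p were those of Sh2d1b1 (EAT-2), an adaptor of SLAM family receptors in NK cells, at 18.4 ± 0.157 CPM in WT and 23.5 ± 2.03 CPM in Fpr2KO (log2 fold change 0.36, SE 0.10, unadjusted p = 0.00690, edgeR adjusted p = 0.753), and of the kinase gene Syk (-0.19, edgeR adjusted p = 1.000). For Sh2d1b1 the Fpr2KO values all exceeded the WT values.

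Ligand genes were measured in the same RNA. Of 22 listed, 18 matched a symbol in the table and 11 were tested, 4 higher and 7 lower with a median of -0.04, and edgeR and DESeq2 called 0, with 1 at an unadjusted p under 0.05 in edgeR. The MHC class I genes H2-K1 (-0.04), H2-D1 (-0.05) and H2-T23 (-0.03), which encodes Qa-1, and B2m (0.11) all overlapped between the groups. Ulbp1, a Klrk1 ligand, was at 15.5 ± 0.401 CPM in WT and 14.8 ± 2.65 CPM in Fpr2KO, while the Klrk1 ligands Raet1d, Raet1e, H60b and H60c had at most 15 reads in any library. Clec2d, the Klrb1b ligand, had a log2 fold change of 0.11. These ligands were chosen after their values were seen. Cdh4, a cadherin gene, had 3.44 ± 0.527 CPM in WT and 5.41 ± 1.20 CPM in Fpr2KO (log2 fold change 0.65, SE 0.23, edgeR adjusted p = 0.884) with the groups barely apart, and Clec2i had 0.19 with overlap.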

How the data were processed

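The deposited table holds raw read counts per Ensembl gene, made by the authors with HTSeq 0.10.0 on mm10 (GRCm38) after FastQC 0.10.1, per the submitters' processing notes. For the aligner, annotation release and strand setting, a statement is not given in the sources used here. Symbols, positions and exon lengths came from GENCODE M21 (GRCm38), which matched 52133 of 55414 gene IDs holding 99.8% of the counts.

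The 7 samples were compared, Fpr2KO against WT, with edgeR 4.0.16 (quasi-likelihood F test, robust, TMM scaling, filterByExpr defaults, R 4.3.3) over all 16089 genes kept, with Benjamini-Hochberg adjustment and a threshold of 0.05. SE is the log2 fold change over the square root of F, and intervals are 95%. Reads are not independent molecules, so counting errors and floors cover counting only. Sequence words and alignments used Biopython 1.88. Every Klr gene with 10 or more counts is named, as are the 2 genes with the smallest p of each list, except 1 that is not reported here. The members and lists were chosen with earlier results of these data known. The lists cover signalling partners, ligands, other NK genes, innate lymphoid, T, B, myeloid, erythroid and acinar genes, and other lectins of the NK gene complex. The fit was tested on simulated data. Alternatives were DESeq2 1.42.0, voom in limma 3.58.1, upper-quartile or RLE scaling, other filters, single libraries left out, a replicate block, other library sizes, no robust estimation and an NK covariate. A fit without Fpr2KO replicates 1 and 2 was added after seeing the data.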

Additional observations from a re-analysis of the deposited data

Results flagged for a closer look

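In 2 of 29 Klr genes 1 Fpr2KO library stood apart from the other 3 by Dixon's criterion at the 95% level, which chance meets in about 1 of 20 groups. Klra17 was at 7.03 CPM in Fpr2KO replicate 2, against 3.56 to 4.12 CPM in the other 3. Klra10 was at 2.07 CPM in Fpr2KO replicate 3, against 1.23 to 1.25 CPM in the other 3, on 35 reads against 21 to 24.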

How the results depend on the processing

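No Klr gene was called in the main fit or in any of the 18 alternatives. The number of genes called over the whole table was 6, 61 with DESeq2, 21 without a low count filter, 12 with the NK covariate and from 5 to 15 with 1 library left out. The Klr median of 0.11 ranged from 0.02 to 0.23 with 1 library left out. Among the lists, DESeq2 called 3 myeloid and 1 acinar gene and the NK covariate fit 2 myeloid genes, against 0. A replicate block over the shared numbers, without Fpr2KO replicate 4, called 2 genes and no Klr gene. The deviations of same-numbered libraries correlated at 0.074, -0.48 and -0.072 over genes, and not every sample correlated best with its own number. Deviations from the means of such small groups are tied to one another, so these correlations cannot exclude that the numbers pair the samples. Small differences changed sign. With upper-quartile scaling Klrb1f was at 0.01 and Klra2 at 0.00, with limma-voom Klrc3 was at 0.11, and without Fpr2KO replicates 1 and 2 Klrc3 was at 0.18 and Klra1 at -0.02. With 1 library left out, signs changed in the ranges -0.13 to 0.18 (log2 scale) for Klra2, -0.04 to 0.54 (log2 scale) for Klra3, -0.02 to 0.24 (log2 scale) for Klrb1a, -0.23 to 0.04 (log2 scale) for Klrb1b, -0.06 to 0.24 (log2 scale) for Klrb1c, -0.15 to 0.11 (log2 scale) for Klrb1f, -0.18 to 0.03 (log2 scale) for Klrc1, -0.16 to 0.11 (log2 scale) for Klrc2, -0.43 to 0.22 (log2 scale) for Klrc3 and -0.01 to 0.17 for Klre1. The cause was not tested. Low counts limit the precision for Klrb1, Klra5, Klra10, Klrg2 and Klra11-ps.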

Other observations

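C-type lectin genes that lie among the Klr genes on chromosome 6 but belong to other families had 3 higher and 7 lower fitted levels among 10 tested, with 0 called by edgeR or DESeq2 and 2 at an unadjusted p under 0.05 in edgeR. Clec7a (Dectin-1), a fungal glucan receptor of myeloid cells, was at 83.8 ± 8.98 CPM in WT and 62.7 ± 5.03 CPM in Fpr2KO (log2 fold change -0.42, SE 0.10, edgeR adjusted p = 0.517), with the groups apart. Clec9a, a receptor of type 1 dendritic cells, was at 28.4 ± 3.46 CPM in WT and 35.0 ± 3.35 CPM in Fpr2KO (log2 fold change 0.30, SE 0.12, edgeR adjusted p = 0.945).

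Other cell types of the spleen samples were read from their own marker genes. Innate lymphoid and tissue-resident genes had 4 of 9 higher (median -0.04, 2 at an unadjusted p under 0.05), with the chemokine receptor gene Cxcr6 at 20.0 ± 0.790 CPM in WT and 26.0 ± 3.11 CPM in Fpr2KO (log2 fold change 0.38, edgeR adjusted p = 0.753) and the cytokine receptor gene Il7r at a log2 fold change of -0.44 (edgeR adjusted p = 0.817). T cell genes had 10 of 12 higher (median 0.07, 0 at an unadjusted p under 0.05), with Zbtb16 at -1.18 and Cd8b1 at 0.10. B cell genes had 3 of 8 higher (Cd79b 0.10) and myeloid genes 0 of 9 (S100a9 -1.06, S100a8 -1.03), each as log2 fold changes. Erythroid genes had 0 of 9 higher (Hba-a1 -0.98, Hbb-bs -0.93) and acinar genes 4 of 4 tested (Zg16 2.40, Prss2 6.06). Erythroid genes summed to 14970 to 92000 CPM in WT and 10050 to 51500 CPM in Fpr2KO. The interval of Hba-a1 was -3.01 to 1.05. Prss2 (interval -0.41 to 12.53) had 103.7 and 41.9 CPM in Fpr2KO replicates 1 and 2. It had 0.533 and 0.261 CPM in Fpr2KO replicates 3 and 4, and 0.369 to 0.786 CPM in WT. In these 6 lists edgeR called 0 genes, with 4 myeloid genes and 0 B cell, erythroid or acinar genes at an unadjusted p under 0.05, while DESeq2 called 3 myeloid genes, 1 acinar gene and 0 in the other 4 lists. Smaller fitted differences in the myeloid list included Csf1r (-0.05) and Adgre1 (-0.02).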
